A study of Mus musculus with 4 samples.

Results

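The genes described here are 10 identity genes of tissue macrophages and microglia, the macrophages of the brain, taken by gene symbol from a table of 24637 genes. They are *C1qa*, *C1qb*, *C1qc*, *Cx3cr1*, *Fcrls*, *Csf1r*, *Trem2*, *Tyrobp*, *P2ry12* and *Mrc1*, and all 10 symbols were found. They were chosen because earlier results of the same libraries had shown several of them to be absent from one genotype. Their difference between the genotypes is therefore given as a description with no test. The libraries were 2 WT and 2 *Taf4a*-/- samples labelled cardiac cells, made from polyadenylated RNA of mouse embryonic stem cells (ESCs). The ESC lines had been isolated from blastocysts of *Taf4a*+/- crosses on a C57Bl6J background and were kept on mouse embryonic fibroblast feeders. They were grown as embryoid bodies (EBs) for 5 days in medium with 20% fetal calf serum and then for 9 days on gelatin-coated plates, and both genotypes had the same treatment. Taf4 is a subunit of TFIID, the complex that binds core promoters, and the null allele lacks 2 exons in all cells. The reason for comparing the genotypes was to learn which genes need Taf4 during differentiation into the cardiac lineage.

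The values below, called normalized counts, are reads on a gene scaled by the size factor of its library. A single read counted as 0.877 or 1.04 in the WT libraries, and as 0.979 or 1.11 in *Taf4a*-/- replicates 1 and 2. The libraries held 21732746 to 27733034 reads on genes. The reads of *Taf4a* over the whole gene did not mark the genotype, since WT had 889 and 678 normalized counts and the libraries labelled *Taf4a*-/- had 1722 and 1799 (log2 fold change 1.18, SE 0.16, limma adjusted p = 0.00569). Genotypes are therefore named after the labels only. The paper names 2 independent ESC lines per genotype, while the sample labels give replicate numbers only and do not say which line gave which library. The p-values rest on the spread between the 2 libraries of a genotype, drawn towards a trend of this spread over all genes. Markers of the labelled cell type were present in both genotypes and lower in *Taf4a*-/-. All 11 cardiomyocyte markers tested fell, beside 17.3% of all genes tested. *Actc1*, a sarcomeric actin, went from 7519 and 6901 normalized counts in WT to 227 and 399.

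As background, tissue macrophages arise in the embryo from yolk sac and fetal progenitors and depend on the receptor Csf1r, which binds the growth factors Csf1 and Il34. C1q, the recognition molecule of the classical complement pathway, is assembled from the chains encoded by *C1qa*, *C1qb* and *C1qc* and is secreted mainly by macrophages. Trem2 is a lipid and lipoprotein receptor that signals through the adaptor Tyrobp, and Cx3cr1 and P2ry12 sense the chemokine Cx3cl1 and extracellular ADP. The transcription factor PU.1, encoded by *Spi1*, binds purine-rich sequences with a GGAA core and is needed for all of these cells.

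The sequence before the start site was available in RefSeq (GRCm38.p6) for 7 of the 10 genes, and *C1qa*, *Csf1r* and *Tyrobp* are named only. The 250 bases before the start are printed for *C1qb* and *C1qc*, neighbours on chromosome 4, for *Fcrls*, which held the most matches to AGGAAG, and for *Cx3cr1*, which held none. They are given 5′ to 3′ on the strand of the gene, which is the minus strand for all 4, at chr4:136886201-136886450 for *C1qb*, chr4:136892915-136893164 for *C1qc*, chr3:87263525-87263774 for *Fcrls* and chr9:120068297-120068546 for *Cx3cr1*. Capitals mark AGGAAG or its complement CTTCCT.
C1qb: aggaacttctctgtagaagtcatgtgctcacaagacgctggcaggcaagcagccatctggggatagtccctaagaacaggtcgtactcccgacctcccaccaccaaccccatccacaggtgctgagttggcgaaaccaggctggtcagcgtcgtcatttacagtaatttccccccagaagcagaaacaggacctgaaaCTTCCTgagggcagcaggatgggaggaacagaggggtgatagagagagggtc
C1qc: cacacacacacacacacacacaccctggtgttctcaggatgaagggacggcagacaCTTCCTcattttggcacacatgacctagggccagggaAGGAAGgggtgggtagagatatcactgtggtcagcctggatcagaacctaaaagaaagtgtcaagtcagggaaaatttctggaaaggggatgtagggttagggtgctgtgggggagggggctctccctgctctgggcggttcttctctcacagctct
Fcrls: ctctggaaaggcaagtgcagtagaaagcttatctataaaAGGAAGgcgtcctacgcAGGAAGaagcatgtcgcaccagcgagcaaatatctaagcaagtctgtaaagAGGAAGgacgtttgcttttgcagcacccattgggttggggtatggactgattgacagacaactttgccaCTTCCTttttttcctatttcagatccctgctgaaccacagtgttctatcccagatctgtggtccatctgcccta
Cx3cr1: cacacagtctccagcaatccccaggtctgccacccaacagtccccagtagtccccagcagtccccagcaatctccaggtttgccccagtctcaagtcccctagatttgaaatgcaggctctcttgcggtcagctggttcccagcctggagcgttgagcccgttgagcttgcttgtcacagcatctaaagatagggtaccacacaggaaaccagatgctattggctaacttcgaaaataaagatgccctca
AGGAAG was found on either strand in 6 of the 7 sequences and in 29.5% of 32851 promoters of the same length. In *C1qb* the first base of the match lay at position -52, counted from the base before the start as -1. *C1qc* had matches at -194 and -157, and *Fcrls* at -211, -194, -143 and -74. A single match lay at -41 in *Trem2* and at -52 in *P2ry12*, and *Mrc1* had matches at -210, -168 and -36. The same letters were in 52.8% of 36 promoters of other pan-macrophage genes and in 14.3% of 14 promoters of cardiomyocyte markers.

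AGGAAG was shown because of its counts, out of 11 motifs searched on both strands, and several of these overlap one another. GGAAGT, which can share 5 bases with AGGAAG, was in 5 of the 7 sequences and in 19.7% of all promoters. The longer forms AGAGGAAG and GAGGAAGT, which both hold AGGAAG, were in 2 and 1 of the 7 and in 3.67% and 2.44% of all promoters. TATAAA, and TATAA which lies within it, were in 1 of the 7, *Fcrls*, against 12.4% and 22.8%. TTGCNNAA was in *P2ry12* alone among the 7 (9.56% of all promoters), and TGANTCA in *Trem2* alone (6.75%). The letters GAACTG and TGACTCA (a form of TGANTCA) and a short form of the interferon-stimulated response element were in 0 of the 7 and in 13.3%, 4.46% and 2.98% of all promoters. The 7 sequences held 2 to 6 CG pairs with a median of 4, against a median of 6 over all promoters. No binding was measured in these samples, and these matches describe the letters in this window only.

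The C1q genes lie side by side on chromosome 4 (mm9), *C1qb* at chr4:136436044-136442102, *C1qc* at chr4:136445719-136448980 and *C1qa* at chr4:136451832-136454718. *C1qa* was counted at 710.1 and 746 in WT replicates 1 and 2 and at 0 reads in both *Taf4a*-/- libraries. *C1qb* had 1397 and 1454 in WT, 0 in *Taf4a*-/- replicate 1 and 6.64 in replicate 2, which is 6 reads. *C1qc* had 1039.8 and 1139.8 in WT, 0 in *Taf4a*-/- replicate 1 and 8.85, or 8 reads, in replicate 2. Every chain was therefore abundant in both WT libraries, and the genotypes did not come near to overlapping. The difference of *C1qa* was at least 233-fold, taking the floor of 3 reads in each *Taf4a*-/- library. The WT mean was 429.7 times the *Taf4a*-/- mean for *C1qb* and 246 times for *C1qc*. From the few *Taf4a*-/- reads, 95% Poisson intervals were 197 to 1171 and 125 to 571, which cover counting error only. Fewer macrophages and less RNA of these genes per cell cannot be told apart in such bulk samples.

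The 3 chains kept close proportions in the WT libraries. Per kilobase of exon, *C1qb* had 1.88 and 1.86 times the level of *C1qa* in WT replicates 1 and 2. *C1qc* had 0.789 and 0.823 times the level of *C1qa* on the same scale. The summed C1q counts were 3147 and 3340 in the WT libraries, against 0 and 15.5 in *Taf4a*-/- replicates 1 and 2.

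Among the receptors, *Cx3cr1* (chr9:119957811-119977400), which binds fractalkine, had 1462 and 2067 normalized counts in WT, and 0 and 7.74 in *Taf4a*-/-. Its WT mean was 456 times the *Taf4a*-/- mean (95% Poisson interval 221 to 1134). *P2ry12* (chr3:59020193-59066753), the ADP receptor used as a microglia marker, had the lowest WT counts of the 10 genes, 101 and 118, and 0 reads in both *Taf4a*-/- libraries. Its difference was at least 35.1-fold, a bound set by its low WT level. *Fcrls* (chr3:87054680-87067660), an Fc receptor-like scavenger receptor, had 1068 and 1364 in WT and 0 and 3.32 in *Taf4a*-/-. The latter value is 3 reads, and the WT mean was 733 times the *Taf4a*-/- mean (interval 251 to 3554).

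*Csf1r*, the receptor for Csf1 and Il34 on chromosome 18, did not reach 0 in any library. It had 2825 and 3159 normalized counts in WT, the highest counts of the 10 genes, and 36.2 and 47.6 in *Taf4a*-/-. These were 37 and 43 reads, and the WT mean was 71.4 times the *Taf4a*-/- mean (interval 57.4 to 90.1). Exons of *Csf1r* and of *Hmgxb3*, on the other strand, share 871 bases in the annotation, and reads from these bases cannot be assigned to one gene where counting ignores strand. *Hmgxb3* had 1611 and 1676 normalized counts in WT and 1993 and 1924 in *Taf4a*-/- and was not called (log2 fold change 0.25, adjusted p = 0.139 from limma). The part of its reads in the *Csf1r* remainder was not tested.

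The receptor *Trem2* (chr17:48485726-48493472) had 416 and 504 normalized counts in WT and 0.979 and 2.21 in *Taf4a*-/-, which were 1 and 2 reads. Its adaptor *Tyrobp* (chr7:31198807-31202596), also called DAP12, had 499 and 765 in WT and 0 and 6.64 in *Taf4a*-/-. Both were at or near 0 in both *Taf4a*-/- libraries. The WT mean of *Trem2* was 288 times the *Taf4a*-/- mean (interval 98.7 to 1399), and that of *Tyrobp* 190.4 times (interval 87.5 to 519). The level of *Trem2* per kilobase was 0.0952 and 0.0751 of that of *Tyrobp* in WT replicates 1 and 2, a ratio that rests largely on the annotated exon lengths of 4946 and 564 bases.

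*Mrc1* (chr2:14151041-14253684), the mannose receptor CD206, kept the largest remainder of the 10 genes. It had 1639 and 2765 normalized counts in WT and 74.4 and 186 in *Taf4a*-/-, which were 76 and 168 reads. The WT mean was 16.9 times the *Taf4a*-/- mean (interval 14.9 to 19.3). The share of the WT mean left was 3.38% in *Taf4a*-/- replicate 1 and 8.44% in replicate 2. For the 9 other genes this share was between 0% and 1.59%.

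**Figure D1:**
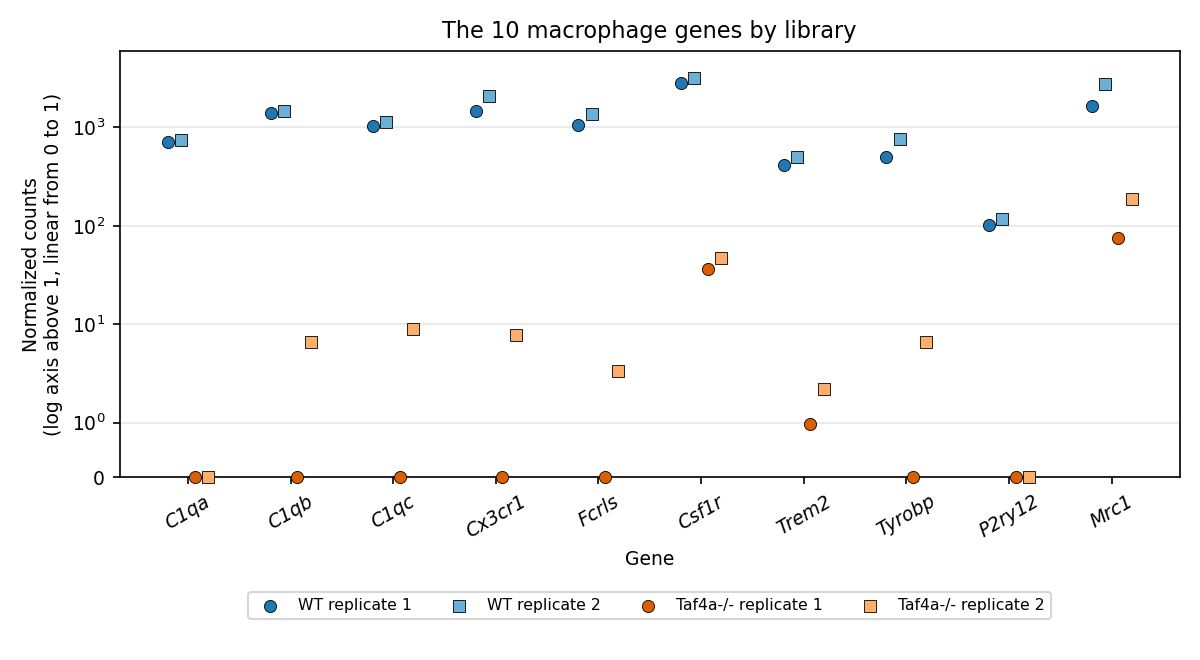
Normalized counts of the 10 macrophage genes in each library, on an axis that is logarithmic above 1 and linear from 0 to 1. Circles and squares are replicates 1 and 2, blue for WT and orange for *Taf4a*-/-, and 7 genes lie at 0 in *Taf4a*-/- replicate 1, 2 of them also in replicate 2, while *Csf1r* and *Mrc1* stay above 30 in every library.

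All 10 genes passed the filter for testing, 10 normalized counts or more on average over the 4 libraries, and they passed through their WT values. In the fit over 16926 genes, all 10 lay below both WT libraries in both *Taf4a*-/- libraries, as did 36.6% of all genes tested, and all 10 were called lower, as were 17.3% of all genes. Since the genes were chosen on this contrast, nothing is read from these counts. Their median log2 fold change was -8.12 on the log2(normalized count + 1) scale, and -7.83 with the 2 genes at 0 in both *Taf4a*-/- libraries set to their bound. Among all fitted falls *C1qa*, *Cx3cr1*, *Fcrls* and *C1qb* had ranks 2, 3, 4 and 5. *C1qc* had rank 9, *Tyrobp* 14, *Trem2* 17, *P2ry12* 43, *Csf1r* 69 and *Mrc1* 266. The median and the ranks come from the same contrast the genes were chosen on, and nothing is read from them either. For genes at or near 0 reads in *Taf4a*-/-, the rank depends on the WT level and on the 1 added before the logarithm.

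Per kilobase of exon, a scale on which genes can be ranked, the WT means ran from 1310.3 normalized counts for *C1qb* to 46.1 for *P2ry12*. *Tyrobp* followed *C1qb* with 1120.2, and its WT libraries, at 884 and 1356, spanned the level of *C1qb*. *C1qa* stood next with 700.1, between 683 and 717. *Csf1r*, *C1qc*, *Fcrls* and *Cx3cr1* had 572, 564, 521 and 473, and each overlapped its neighbour in this order in the values of single libraries. *Mrc1* had 370.2, with 276 and 465 in the 2 libraries, which overlapped *Cx3cr1*. *Trem2* with 93.0 and *P2ry12* with 46.1 were apart from these and from each other.

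**Figure D2:**
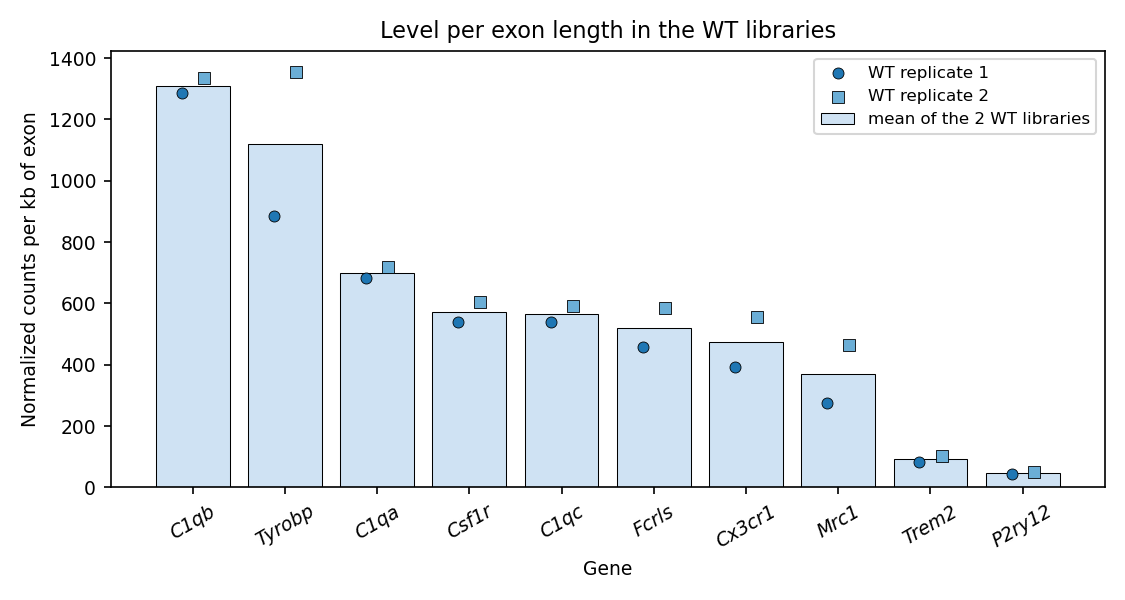
WT level of each gene in normalized counts per kilobase of exon, with bars from 0 for the mean of the 2 WT libraries and points for each library. *C1qb* and *Tyrobp* head the order with means of 1310.3 and 1120.2, and *Trem2* and *P2ry12* close it with 93.0 and 46.1.

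The WT libraries differed from one another in one direction. All 10 genes were higher in WT replicate 2 than in replicate 1, from 1.04 times for *C1qb* up to 1.69 times for *Mrc1*, with a median of 1.19. Over all tested genes 51.8% were higher in WT replicate 2, and the median ratio of genes with at least 100 normalized counts in both was 1.02. *Taf4a*-/- replicate 2 likewise had more reads than replicate 1 for 8 of the 10 genes and the same, 0, for *C1qa* and *P2ry12*. The share of all tested genes higher in *Taf4a*-/- replicate 2 was not counted, so this count has no background beside it. Summed over the 8 genes other than *Csf1r* and *Mrc1*, the reads were 7635 and 7851 in the WT libraries, 1 in *Taf4a*-/- replicate 1 and 32 in replicate 2. All 10 genes together had 11157 and 14081 normalized counts in WT and 112 and 269 in *Taf4a*-/-. Replicates of the 2 genotypes that share a number are not known to be related.

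Other blood and vessel genes also differed between the *Taf4a*-/- libraries, and here too no share over all genes was counted. All 18 erythroid and megakaryocyte genes were higher in *Taf4a*-/- replicate 2 than in replicate 1, and their summed normalized counts were 3010.1 to 6482 in WT, 2925 in *Taf4a*-/- replicate 1 and 16914 in replicate 2. *Hbb-bh1*, an embryonic globin, had 927 and 5279 in *Taf4a*-/- replicates 1 and 2. Of 19 endothelial genes 16 were higher in *Taf4a*-/- replicate 2, with summed counts of 18412 to 21112 in WT and of 14499 and 18402 in *Taf4a*-/- replicates 1 and 2. *Cdh5*, the cadherin of endothelial junctions, had 992 and 2226 there. Mrc1 is known in sinusoidal and lymphatic endothelium as well as in macrophages. The part of these differences in the *Mrc1* and other remainders was not tested.

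**Figure D3:**
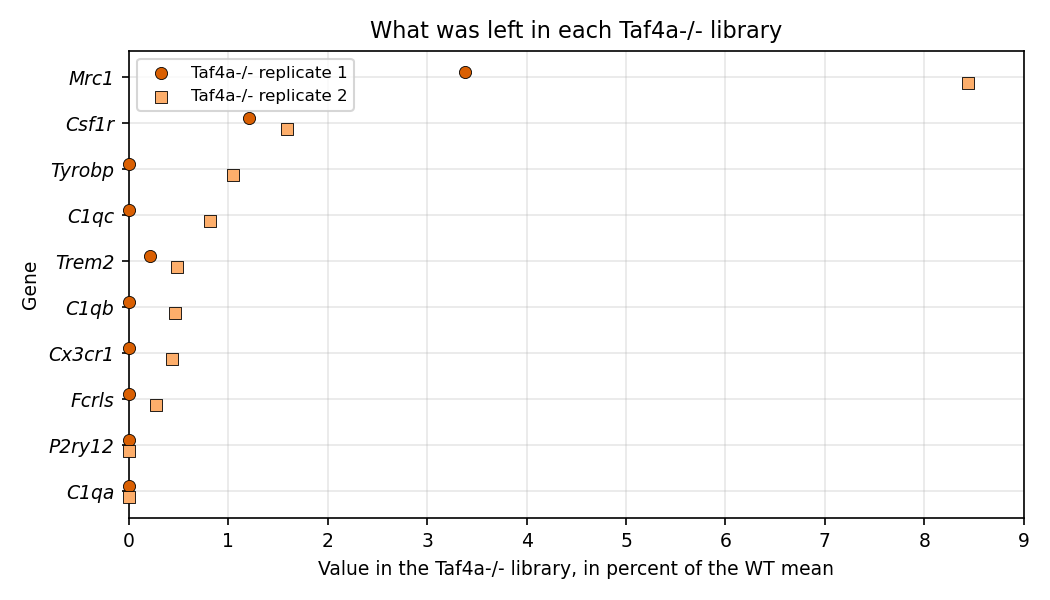
Value of each gene in the *Taf4a*-/- libraries as a percentage of its WT mean, with circles for replicate 1 and squares for replicate 2. *Mrc1* lies apart at 3.38% and 8.44%, *Csf1r* at 1.21% and 1.59%, and all squares lie at or to the right of their circles.

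The microglia name was checked against markers that were not among the 10 genes. *Gpr34*, *P2ry13* and *Tmem119* fell and *Sall1* and *Siglech* were not called or too low to test. *Gpr34* had 146 and 136 normalized counts in WT and 0 and 1.11 in *Taf4a*-/-, and *P2ry13* had 43.0 and 64.4 against 0 and 0. *Siglech*, which is near-specific to microglia and plasmacytoid dendritic cells, had 4.38 and 1.04 in WT and 0 in both *Taf4a*-/- libraries. *Tmem119* remained at 924 and 1103 in *Taf4a*-/- against 1738 and 2148 in WT, and fell (log2 fold change -0.94, limma adjusted p = 0.0109), a call that was lost without WT replicate 2. *Sall1*, which encodes a transcription factor of microglia and of other embryonic tissues, had 1264 and 701 in WT and 1353 and 1443 in *Taf4a*-/- and was not called (adjusted p = 0.161), but was called higher without WT replicate 1 (log2 fold change 0.99). With *Siglech* at a few reads and *Tmem119* and *Sall1* at high levels where C1q was at or near 0, the expression does not single out microglia, and the 10 genes are described here as tissue macrophage genes.

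Markers of border macrophages, those of the meninges and vessels, gave a divided picture too. *Cd163* had 0.877 and 0 normalized counts in WT and 0 and 1.11 in *Taf4a*-/-, and *Timd4* had 15.8 and 6.23 against 0 and 0. *Pf4* had 418 and 345 in WT and 14.7 and 17.7 in *Taf4a*-/- (log2 fold change -4.48, adjusted p = 0.000976). *Lyve1*, the hyaluronan receptor of some macrophages and of lymphatic endothelium, had 77.2 and 95.6 against 0.979 and 7.74 (log2 fold change -4.38, adjusted p = 0.0104), a call lost without WT replicate 2. *F13a1*, which encodes a coagulation factor subunit, had 928 and 1553 against 3.92 and 21.0. *Ms4a7* had 228 and 271 against 0.979 and 0.

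Of the general macrophage markers all 6 fell, beside 17.3% of all genes tested. *Emr1*, which encodes F4/80, had 1448 and 1403 normalized counts in WT and 0 and 8.85 in *Taf4a*-/-. The leukocyte phosphatase gene *Ptprc* (CD45) had 356 and 481 in WT and 1.96 and 4.42 in *Taf4a*-/-. *Fcer1g*, an adaptor of Fc receptors, had 551 and 764 against 0.979 and 15.5, and *Mpeg1* 1781 and 1771 against 34.3 and 24.3. *Cd68* and *Laptm5* stayed higher, with 141 and 121 and with 75.4 and 291 in *Taf4a*-/-. Each of the 6 markers kept its *Taf4a*-/- values below both WT values, as did 36.6% of all genes tested.

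A further list held ligands of the receptors among the 10 genes, other signals to macrophages and enzymes that degrade extracellular nucleotides. *Csf1* had 1309 and 1868 normalized counts in WT and 1545 and 1606 in *Taf4a*-/-, and was not called (log2 fold change 0.01, SE 0.18, limma adjusted p = 0.971). *Il34* had 11.4 in both WT libraries and 3.92 and 4.42 in *Taf4a*-/-, too few to be tested. *Cx3cl1*, the ligand of Cx3cr1, had 692 and 985 in WT and 1369.5 and 864 in *Taf4a*-/- and was not called (log2 fold change 0.40, adjusted p = 0.301). The genotypes overlapped for *Csf1* and *Cx3cl1*, whose receptors differed 71.4-fold and 456-fold. *Tgfb1*, a growth factor that microglia require, fell from 1710.5 and 1986 to 1127 and 1162 (log2 fold change -0.69, adjusted p = 0.0143), a call lost without either *Taf4a*-/- library. *Apoe*, a lipoprotein bound by Trem2, fell from 31165 and 30266 to 9775 and 8841 (log2 fold change -1.72, adjusted p = 0.00127). *Clu*, another Trem2 ligand, had 9569 and 17871 in WT and 10961 and 7368 in *Taf4a*-/- and was not called, and *Cd47* had 1479 and 2634 against 1189 and 1273 with an adjusted p of 0.102, and it was called lower without WT replicate 1 (-1.10). *Entpd1* (CD39), an enzyme that degrades extracellular ATP and ADP and was singled out after its values were seen, fell most in this list, from 390.1 and 428 to 20.6 and 21.0 (log2 fold change -4.23, adjusted p = 0.000809). Of the 9 genes tested in this mixed list 3 fell, 0 rose and 6 were not called. Of all genes tested, 17.3% fell and 11.3% rose, and these shares are the background for the counts of the lists below too.

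Among partners of C1q and other complement genes, 11 of 19 tested fell, 0 rose and 8 were not called, with a median log2 fold change of -1.46 against -0.01 over all genes tested. The serine proteases of the C1 complex were low in all libraries. *C1ra* had 21.9 and 39.5 normalized counts in WT and 7.83 and 2.21 in *Taf4a*-/-, and *C1s* had 51.7 and 92.5 against 22.5 and 26.5. Their adjusted p-values were 0.036 and 0.0415 from limma, and both calls were lost without WT replicate 2 and without *Taf4a*-/- replicate 2. The call of *C1ra* was also lost without WT replicate 1, and that of *C1s* without *Taf4a*-/- replicate 1. The integrin chains of complement receptor 3 fell more. *Itgam* (CD11b) had 422 and 591 in WT and 3.92 and 7.74 in *Taf4a*-/-, a log2 fold change of -6.25 (adjusted p = 0.000981). *Itgb2* (CD18) had 145.5 and 161 against 6.85 and 9.95, a log2 fold change of -4.05 (adjusted p = 0.00186). The broadly expressed *Calr*, *Lrp1* and *C1qbp*, whose products bind C1q, were not called, with log2 fold changes of -0.28, -0.33 and 0.53. Without WT replicate 1 *Calr* (-0.48) and *Lrp1* (-0.45) were called lower, and without *Taf4a*-/- replicate 2 *C1qbp* (0.79) was called higher. *Cd55*, a complement inhibitor, fell by 1.68 on the log2 scale, a call lost without WT replicate 2.

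Receptors and kinases linked to Tyrobp had 15 of 20 tested genes lower, 0 higher and 5 not called, with a median log2 fold change of -3.30. *Syk*, the kinase recruited by Tyrobp, had 549 and 581 normalized counts in WT and 254 and 283 in *Taf4a*-/- (log2 fold change -1.07, adjusted p = 0.00777). *Lyn*, a Src family kinase, fell from 532 and 638 to 232 and 244 (log2 fold change -1.29, adjusted p = 0.0056). *Plcg2*, a phospholipase, and *Ptpn6*, a phosphatase, which act in the same signalling, were not called, with log2 fold changes of 0.30 and 0.05. In *Taf4a*-/- these kinase genes had 232 normalized counts or more where *Trem2* and *Tyrobp* had at most 6.64. *Hcst*, which encodes the related adaptor DAP10 and lies on the other strand with its end 136 bases from the end of *Tyrobp*, was singled out after its values were seen. It had 5.26 and 3.12 in WT and 2.94 and 2.21 in *Taf4a*-/-.

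The factor PU.1 was among the transcription factors that fell. *Spi1* had 324 and 343 normalized counts in WT and 2.94 and 14.4 in *Taf4a*-/-, and fell (log2 fold change -5.43, SE 0.64, adjusted p = 0.00378), a call lost without WT replicate 2. Of 22 myeloid transcription factors tested 12 fell, 2 rose and 8 were not called, with a median of -0.85. *Maf* fell from 2146 and 2564 to 516 and 538 (log2 fold change -2.15, adjusted p = 0.00101). *Zeb2* and *Id2* fell by 0.73 and 0.43, the call of *Zeb2* being lost without *Taf4a*-/- replicate 1 and that of *Id2* without any 1 library. *Myb*, a factor of blood stem and progenitor cells, rose from 56.1 and 18.7 to 144 and 155 (log2 fold change 2.16, adjusted p = 0.0279), a call lost without WT replicate 2. *Etv6* rose by 0.39, a call lost without any 1 library. *Runx1*, singled out after its values were seen, had 829 and 1313 in WT and 812.5 and 585 in *Taf4a*-/- and was not called (adjusted p = 0.137).

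The remaining macrophage lists were larger. Of 39 other pan-macrophage genes tested 37 fell, 0 rose and 2 were not called, with a median log2 fold change of -5.09, or -4.87 with genes at 0 in both *Taf4a*-/- libraries set to their bound. The 4 genes of the list with the highest mean over the 4 libraries fell less, *Lgmn*, a lysosomal protease, by 1.75, *Axl*, a receptor for dying cells, by 1.35, *Sirpa*, the receptor of Cd47, by 2.84 and *Lcp1*, an actin-bundling protein of leukocytes, by 2.67 on the log2 scale. Of 17 border and other tissue macrophage genes 15 fell and 2 were not called, with a median of -3.45. The 4 genes of this list with the highest mean over the 4 libraries, which favours genes kept in *Taf4a*-/-, were *Dab2*, *Gas6*, *Gata6* and *Slc40a1*, which are also expressed outside macrophages. They fell by 1.61, 0.97, 0.78 and 0.77. By the WT mean, *Igf1* (2219.6) and *Stab1* (2181) stood above *Slc40a1* (2115), and they fell by 3.61 and 2.05; both were singled out after their values were seen. The calls of *Gas6* and *Slc40a1* were lost without WT replicate 2 and without *Taf4a*-/- replicate 2, and that of *Gata6* without WT replicate 2 and without *Taf4a*-/- replicate 1.

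Of 29 other microglia genes 22 fell, 1 rose and 6 were not called, with a median of -1.38. *Gpr34*, *P2ry13*, *Tmem119* and *Sall1*, given above, are among these 29. *Sparc*, *Serinc3* and *Cst3*, which many cell types express, fell by 1.23, 0.89 and 0.99, and the calls of *Sparc* and *Serinc3* were lost without either *Taf4a*-/- library. *Tgfbr1*, a receptor for Tgfb1, was not called, with a log2 fold change of 0.43. The 1 gene that rose was *Slc2a5*, a fructose transporter, with 10.5 and 8.31 normalized counts in WT and 40.1 and 26.5 in *Taf4a*-/-, and its call was lost without any 1 library. Of 22 genes of the Trem2-dependent, disease-associated state of microglia 19 fell, 0 rose and 3 were not called, with a median of -1.83. In this list the cathepsin genes *Ctsb* and *Ctsd* fell by 1.90 and 0.92 and *Ctsl* was not called, with a log2 fold change of -0.54. The call of *Ctsd* was lost without *Taf4a*-/- replicate 2.

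Over the 7 macrophage lists together, each gene counted once and the 10 genes left out, 189 genes were in the table and 167 were tested. Of these 130 fell, or 77.8%, and 3 rose, beside 17.3% and 11.3% of all genes tested. Both *Taf4a*-/- libraries lay below both WT libraries for 144 of the 167 genes and above them for 8, beside 36.6% and 34.5% of all genes. The median log2 fold change was -2.07. The count of 3 higher genes was 0 without WT replicate 2. Several of these lists hold genes that other cell types of the cultures express, and the lists were written with earlier results of these libraries known.

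**Figure D4:**
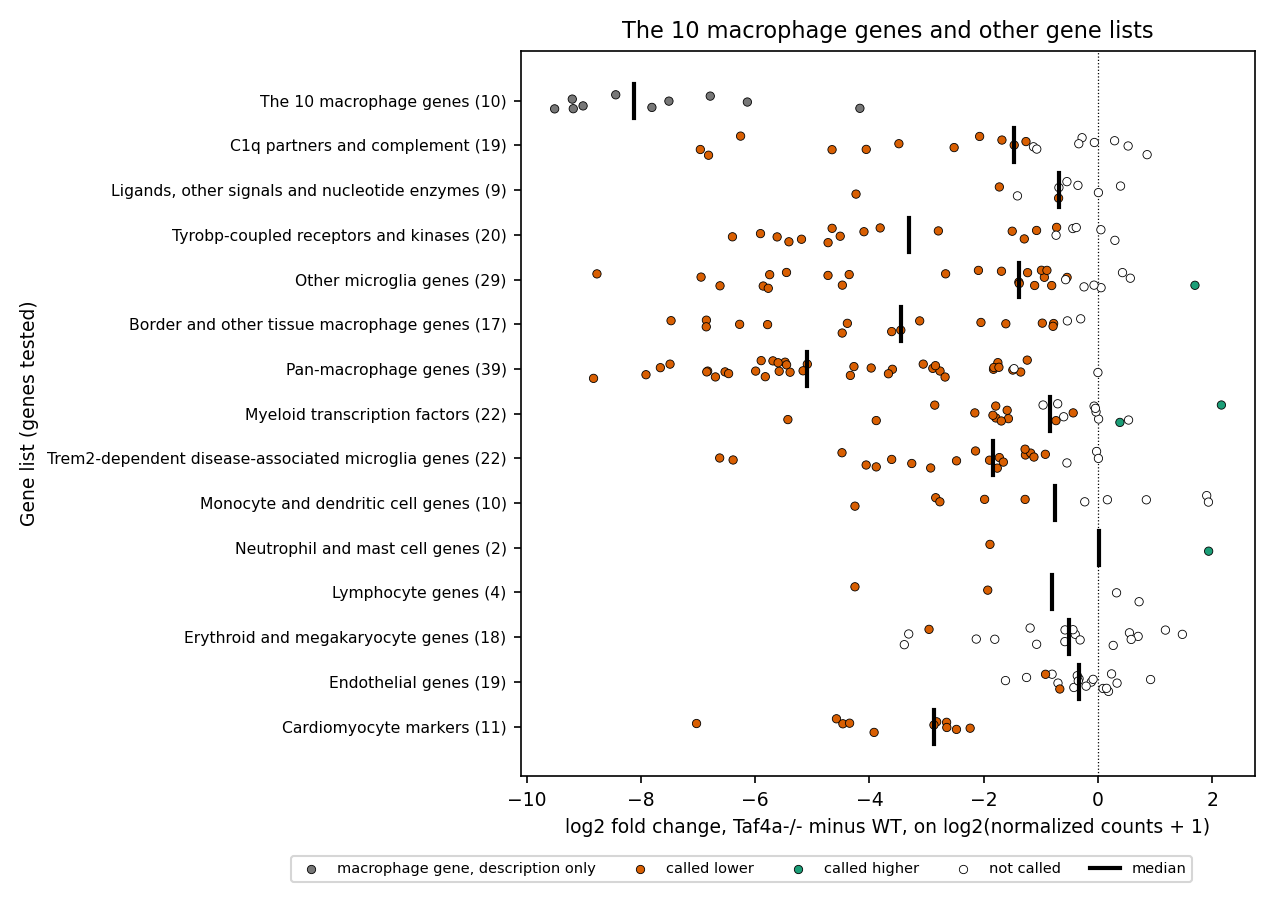
Log2 fold change, *Taf4a*-/- minus WT, of the 10 macrophage genes in grey and of the tested genes of each list, with orange for called lower, green for called higher, white for not called and a bar at the median. The 10 genes have a median of -8.12, the pan-macrophage list of -5.09, and the erythroid and endothelial lists of -0.50 and -0.33.

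Markers of other blood cells and of vessels were counted in the same way. Of 18 erythroid and megakaryocyte genes tested 1 fell, 0 rose and 17 were not called, with a median log2 fold change of -0.50. Without *Taf4a*-/- replicate 1 the embryonic globin genes *Hba-x*, *Hbb-bh1* and *Hbb-y* were called higher, with log2 fold changes of 2.80, 2.44 and 2.13, and without *Taf4a*-/- replicate 2 *Itga2b*, a megakaryocyte integrin, was called lower (-1.68). Of 19 endothelial genes 2 fell, 0 rose and 17 were not called, with a median of -0.33, and *Pecam1* and *Kdr* had log2 fold changes of 0.09 and -0.33. Monocyte and dendritic cell genes had 5 of 10 lower and 5 not called. Among them *Plac8* fell from 522 and 1102 to 135 and 81.8, and *Itgal* fell from 129.8 and 147.5 to 34.3 in both *Taf4a*-/- libraries. *Ccr2* had 45.6 and 49.9 against 0 and 5.53. *Zbtb46*, with 696 and 805 in WT and 615 and 664 in *Taf4a*-/-, was not called. Nor was *Nr4a1*, with 477 and 539 against 589 and 551. Both *Taf4a*-/- libraries lay below both WT libraries for 6 of the 10 genes and above them for 4. The shares of all genes tested were 36.6% and 34.5%.

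Neutrophils and mast cells were hardly represented. *S100a8* and *S100a9* had at most 1.04 normalized counts in any library, and *Elane* at most 2.21, and 2 genes of this list could be tested. *Prtn3*, a protease gene also active in myeloid progenitors, rose from 31.6 and 39.5 to 143 and 134 (log2 fold change 1.94, adjusted p = 0.00727), and *Hdc*, which makes histamine, fell by 1.89, a call lost without WT replicate 2 and without either *Taf4a*-/- library. Of 13 lymphocyte genes found 4 could be tested, and *Cd3e*, not tested, had at most 3.32 normalized counts in any library. Of the 4 tested *Il7r* and *Cd79b* fell and *Lck* and *Zap70* were not called. *Lck* had 122 and 91.4 in WT and 141 and 125 in *Taf4a*-/-, and *Zap70* had 6.14 and 17.7 against 14.7 and 22.1. *Il7r*, which some embryonic macrophages express, had 21.9 and 49.9 in WT and 0 and 2.21 in *Taf4a*-/-, a call lost without WT replicate 2, and that of *Cd79b* was lost without any 1 library.

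To find genes with a like pattern, those with at least 100 normalized counts in both WT libraries and at most 3 reads in both *Taf4a*-/- libraries were counted over the whole table. There were 30 such genes out of 12275, or 0.244%, and the reverse pattern was found for 1 gene. Among the 30 were 4 of the 10 genes, *Fcrls*, *C1qa*, *Trem2* and *P2ry12*, and 9 of the 134 genes of the macrophage lists that reached 100 in both WT libraries. The count was 46 without WT replicate 1 and 62 without *Taf4a*-/- replicate 2. It measures likeness over 4 libraries only. The 10 genes were chosen on this contrast, and the macrophage lists were written with earlier results of these libraries known. Nothing is therefore read from how many of these genes are among the 30.

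The 10 of the other 26 genes with the highest WT mean were of a few kinds. *Ctss*, a cathepsin of antigen-presenting cells, had 663 and 920 normalized counts in WT and 0 and 2 reads in *Taf4a*-/-. The innate receptor gene *Tlr7* had 267 and 335 in WT, and *Cd84*, an adhesion receptor of leukocytes, 210 and 340, and each had 1 to 3 reads in every *Taf4a*-/- library. *Ms4a7*, described above, was also among them. Genes of liver and visceral endoderm were *Alb* with 799 and 1797, *Serpina1b* with 295 and 487 and *Fga* with 444 and 247. *Aqp8*, a water channel, had 427 and 471. Of striated muscle were *Pln*, the phospholamban gene, with 269 and 246, and *Cox6a2* with 203 and 297. The pattern was thus shared with genes of at least 2 tissues other than blood.

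Genes that lie near the 10 genes were compared as well, since position was not used to choose them. The annotation (mm9) held 58 other genes within 100 kb, of which 55 were in the table and 36 were tested. Of these 7 fell and 7 rose, or 19.4% each, beside 17.3% and 11.3% of all genes, and their median log2 fold change was -0.02. The 7 that rose were 2 without WT replicate 2, and 4 without *Taf4a*-/- replicate 1 and without replicate 2. The other 22 tested neighbours were not called.

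Near the C1q genes, *Epha8*, an ephrin receptor gene 30.6 kb away, fell from 426 and 164 to 32.3 and 38.7 normalized counts. Near *P2ry12* the related receptors *P2ry13*, given above, and *P2ry14* fell, the latter from 26.3 and 16.6 to 1.96 and 5.53. *P2ry12* lies within the span of *Med12l*, a Mediator subunit gene, without sharing exons. *Med12l* had 255 and 264 in WT and 289 and 331 in *Taf4a*-/- and was not called. Near *Cx3cr1*, *Xirp1*, a gene of striated muscle, fell from 251 and 296 to 14.7 and 17.7, and *Mobp*, a myelin gene 81.5 kb away, rose from 2.63 and 2.08 to 118 and 103. Near *Trem2*, *Apobec2* fell from 220.1 and 241 to 42.1 and 63.0, and *AI314976* rose by 0.45 on the log2 scale. *Treml1*, a receptor of platelets 5.77 kb from *Trem2* and singled out after its values were seen, had 54.4 and 14.5 in WT and 0 and 7.74 in *Taf4a*-/- and was not called.

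Around *Tyrobp* the directions were mixed. *Aplp1*, 17.4 kb away, fell from 1426 and 3005 to 820.3 and 799 normalized counts, and *Lrfn3* from 454 and 463 to 249.6 and 203.5. *Kirrel2* and *Nphs1*, which encode proteins of cell junctions, rose from 15.8 and 15.6 to 81.3 and 143, and from 34.2 and 22.9 to 143 and 259. *Nphs1as*, antisense to *Nphs1*, rose from 0 and 3.12 to 19.6 and 26.5, and its reads cannot be told from those of *Nphs1* where counting ignores strand. *AI428936* rose by 0.80 on the log2 scale. Near *Csf1r*, *Cdx1*, a homeobox gene, rose from 3.51 and 5.20 to 35.2 and 21.0.

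**Figure D5:**
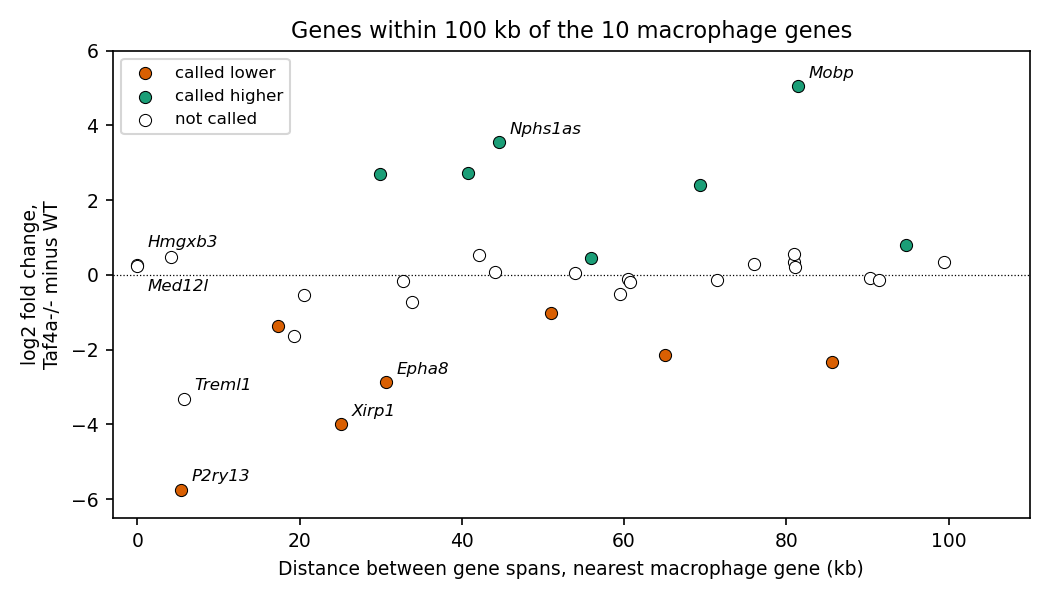
Log2 fold change, *Taf4a*-/- minus WT, of the 36 tested genes within 100 kb against the distance in kilobases between each gene and the nearest of the 10 macrophage genes, with orange for called lower, green for called higher and white for not called. *P2ry13* lies lowest at -5.74 and *Mobp* highest at 5.06, and the overlapping *Hmgxb3* and *Med12l*, at a distance of 0, lie near 0.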

How the data were processed

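Reads of polyadenylated RNA from 4 libraries, 2 WT and 2 *Taf4a*-/-, were mapped by the authors to mm9, and the processing notes name CASAVA 1.8, TopHat 1.3.3, HTSeq 0.5.3p1 and DESeq. The deposited values are counts per gene divided by a size factor per library, written with decimal commas. Divided by the smallest positive value of each library, 100% came out whole (tolerance 0.001), which gave the reads. Genes with a mean of at least 10 (16926 of 24637) were tested on log2(value + 1) with limma 3.58.1 in R 4.3.3 (variance trend), with Benjamini-Hochberg adjustment over all of them and a threshold of 0.05. Folds were taken against a floor of 3 reads per library where both *Taf4a*-/- libraries were at 0. Exon lengths, gene positions and neighbours came from the GENCODE annotation of mm9, in which 99.4% of genes had the same symbol. Promoters came from RefSeq on another build (GRCm38.p6), matched by symbol.

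The 10 genes, the lists (306 genes, 20 of them not found) and the tests were chosen with earlier results of these data known. Genes named were the 10, *Taf4a*, chosen ligands and partners, cell type markers, the 4 with the highest mean over the 4 libraries and up to 3 that rose in each list, the 10 most abundant other genes with the same pattern, and neighbours that were called or overlapped. Results were recomputed with other pseudocounts, filters and scalings, without the variance trend, at a stricter threshold, with a replicate block and with each library left out. A voom fit of the recovered reads was chosen after seeing the data. Figures used Python 3.11.15 and matplotlib 3.10.9. A few markers of these lists are not reported here.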

Additional observations from a re-analysis of the deposited data

How the results depend on the processing

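The 130 macrophage list genes called lower were 89 to 131 under all alternatives tried, and 89 to 121 with 1 library left out. The 4834 genes called over the whole table were 2597 without the variance trend, 1450 at an adjusted p under 0.01 and 1967 to 5514 with 1 library left out, and 4566 by voom. The 3 list genes called higher were 1 with no filter, 1 without the variance trend, 0 at an adjusted p under 0.01 and 0 to 2 with 1 library left out. Of the neighbours, the 7 called lower were 4 at an adjusted p under 0.01, 4 within 50 kb and 5 to 7 with 1 library left out, and the 7 called higher were 3, 3 and 2 to 7. The 30 genes present in WT and absent in *Taf4a*-/- were 70 with at least 50 normalized counts in WT, 14 with at least 200, 10 with 0 reads required and 37 to 62 with 1 library left out. The median of the 10 genes was -6.03 with a pseudocount of 10, which shrinks folds of genes near 0, and -9.39 to -6.97 with 1 library left out. No direction of a called result was reversed. With 1 library left out fewer samples entered by construction, and for the other settings that moved a count the cause was not tested. Quantile normalization put the median of all genes at 0.11 and called 2460 lower and 2624 higher, or 51.6% higher against 39.4%, and 126 list genes lower. Deviations of samples with the same number had a correlation of 0.01, so the numbers were not taken to pair the libraries. With the replicate block 4193 genes and 129 lower list genes were called. Among the calls of named list genes 769 were unchanged, 73 were lost, 11 were gained and 10 uncalled values moved. The count tests of edgeR and DESeq2 were planned and not run, and voom was the only fit of the recovered reads. Depth limits the folds of genes at 0 to 6 reads, which are bounds or wide intervals.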
